A study of Mus musculus with 160 samples.

Results

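The guanylate-binding proteins (Gbps) were described in RNA-seq data from the distal colon of 160 mice of 4 knockout lines. The family was taken as 10 named genes, *Gbp2*, *Gbp2b*, *Gbp3*, *Gbp4*, *Gbp5*, *Gbp6*, *Gbp7*, *Gbp8*, *Gbp9* and *Gbp10*, matched by Ensembl identifier to the 39179 genes counted. Counts were matched for 7 of the 10, and *Gbp5*, *Gbp6* and *Gbp10* were not analysed here under their own identifiers. The identifier matched to *Gbp2b* may hold reads of *Gbp5*, as described below. In the GENCODE annotation of GRCm38 (mm10), the genes lie in 2 clusters. *Gbp5*, *Gbp7*, *Gbp3*, *Gbp2b* and *Gbp2* follow each other on the plus strand of chromosome 3, and *Gbp8*, *Gbp9*, *Gbp4*, *Gbp10* and *Gbp6* lie on the minus strand of chromosome 5.

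Gbps are large GTPases that interferon, above all interferon-γ, induces in macrophages, epithelium, endothelium and many other cells. They assemble on the vacuoles and surfaces of intracellular bacteria and parasites, and several of them, *Gbp2* and *Gbp5* among them, promote inflammasome activation. Interferon-γ signals through its receptor to gamma-activated sites in DNA and induces *Irf1*, and interferon-regulatory factors act at interferon-stimulated response elements. The immunity-related GTPases (*Igtp*, *Irgm1*, *Irgm2* and others) are a second interferon-induced GTPase family that acts on the same vacuoles.

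The mice were homozygous knockouts and wild-type littermates of the *Nckap1l* (labelled HEM1), *Dock2*, *Gpsm3* and *Dok3* lines. The first 3 lines were labelled C57BL6/J and the *Dok3* line 129. Knockouts and wild types numbered 16 and 15 for *Nckap1l*, 18 and 24 for *Dock2*, 20 and 20 for *Gpsm3*, and 26 and 21 for *Dok3*. The *Gpsm3* and *Dok3* mice were labelled male, and the other 2 lines held both sexes. Dextran sulfate sodium (DSS), a polymer in drinking water that injures the colonic epithelium, was labelled at 3% for the *Dock2* and *Gpsm3* lines and 3.5% for the *Dok3* line, without a percentage for the *Nckap1l* line. It was given for 5 days, and tissue was taken on day 10, or on day 12 in the *Nckap1l* line. The methods of the study give a slightly lower dose for the *Nckap1l* line. For the *Dok3* line they give 3.5% after 3% in the first round of experiments, and the round of a mouse is not labelled. Which mice drank DSS is not labelled, so treated and untreated mice are mixed in unknown shares in every group, and they cannot be told apart in any comparison below. Ages are not labelled.

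Each library held between 4344988 and 19993833 counts on genes, with fewer than 10000000 in 8 of them. Levels are given as CPM, counts scaled to a common library total, after normalization by the trimmed mean of M values (TMM). Before that normalization, a count of 3 corresponded to between 0.15 and 0.69 CPM, which covers counting error only. The epithelial genes *Epcam* and *Vil1* were at 267 CPM or more and 92.3 CPM or more in every library. Skin keratin and cornification genes had a mean over 3 on the log2 CPM scale in 32 libraries, 15 of them in the *Nckap1l* line, a list that marks another tissue. In 5 libraries of the *Dok3* line, the sex markers went against the label. The targeted genes were not absent from the knockouts. Their levels in knockout against wild type had medians of 14.8 against 27.2 CPM for *Nckap1l*, 22.2 against 34.2 CPM for *Dock2*, 0.575 against 3.21 CPM for *Gpsm3* and 3.18 against 3.64 CPM for *Dok3*, with overlapping ranges in all 4 lines. By edgeR's quasi-likelihood test, only *Gpsm3* passed in its own line, at a log2 fold change of -2.06 ± 0.28 (SE; adjusted p = 0.0001). The labelled genotypes below thus rest on the labels, and in the *Dok3* line the counts do not check them.

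Promoters of 5 members were in the RefSeq table (GRCm38.p6, 250 bases before to 50 after the start, plus strand), all of them in the chromosome 3 cluster. They are shown so that the interferon-response motifs of the chromosome 3 genes can be seen side by side, whether or not a gene had matched counts. Capitals mark matches on either strand to the core of the interferon-stimulated response element, TTTC and again TTTC with a pair of any bases between, and to the gamma-activated site, TTCNNNGAA. Overlapping matches run together in capitals.
Gbp2, chr3:142620413-142620712: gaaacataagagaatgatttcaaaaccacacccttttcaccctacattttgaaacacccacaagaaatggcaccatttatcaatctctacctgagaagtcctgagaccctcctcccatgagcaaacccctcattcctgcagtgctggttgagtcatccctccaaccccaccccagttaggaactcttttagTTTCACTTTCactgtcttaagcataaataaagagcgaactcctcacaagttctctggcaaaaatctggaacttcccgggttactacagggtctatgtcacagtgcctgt
Gbp3, chr3:142559794-142560093: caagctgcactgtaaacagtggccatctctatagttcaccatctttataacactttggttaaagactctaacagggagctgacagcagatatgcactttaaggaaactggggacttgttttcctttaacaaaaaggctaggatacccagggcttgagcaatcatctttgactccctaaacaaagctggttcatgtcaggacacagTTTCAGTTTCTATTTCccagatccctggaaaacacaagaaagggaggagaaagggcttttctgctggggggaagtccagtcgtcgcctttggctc
Gbp7, chr3:142530086-142530385: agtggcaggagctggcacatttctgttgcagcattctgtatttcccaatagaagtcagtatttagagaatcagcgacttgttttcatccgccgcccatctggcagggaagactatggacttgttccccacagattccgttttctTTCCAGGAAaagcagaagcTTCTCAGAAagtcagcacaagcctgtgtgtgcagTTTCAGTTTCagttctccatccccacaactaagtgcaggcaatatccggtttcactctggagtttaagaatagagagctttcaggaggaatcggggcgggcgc
Gbp5, chr3:142496684-142496983: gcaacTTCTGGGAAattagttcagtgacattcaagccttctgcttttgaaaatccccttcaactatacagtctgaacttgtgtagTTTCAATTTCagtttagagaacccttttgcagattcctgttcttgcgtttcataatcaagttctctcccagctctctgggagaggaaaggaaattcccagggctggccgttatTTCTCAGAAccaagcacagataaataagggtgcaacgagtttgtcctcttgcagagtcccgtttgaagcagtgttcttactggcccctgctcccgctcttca
Gbp2b, chr3:142594597-142594896: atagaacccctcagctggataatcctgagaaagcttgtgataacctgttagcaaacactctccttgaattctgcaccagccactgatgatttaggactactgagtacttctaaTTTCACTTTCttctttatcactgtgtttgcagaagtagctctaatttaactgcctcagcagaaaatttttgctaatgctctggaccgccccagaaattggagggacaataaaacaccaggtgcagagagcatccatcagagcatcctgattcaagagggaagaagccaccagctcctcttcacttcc
The interferon element was found in all 5. Counted from the start site, it begins at -59 in *Gbp2*, -45 and -39 in *Gbp3*, -53 in *Gbp7*, -165 in *Gbp5* and -137 in *Gbp2b*. *Gbp2* and *Gbp2b* carry the identical match TTTCACTTTC. A further listed start of *Gbp3* had no match in its window. The element was present in 3.44% of all 32851 promoters of this length, and in 3.99% of the 27025 genes. The gamma-activated site was matched only in *Gbp7*, at -106 and -87, and in *Gbp5*, at -245 and -52. It was present in 8.3% of all promoters, and 0.454% held both motifs. A match to these letters is a description of the sequence and not of bound factor.

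The annotation places *Gbp2* at chr3:142620602-142638008, *Gbp3* at chr3:142560026-142573209 and *Gbp7* at chr3:142530342-142550149. The identifier ENSMUSG00000040264, which it names *Gbp2b* (chr3:142594847-142619179), stood in the count tables between *Pdlim5* and *Gbp7*, where the annotation places *Gbp5*, although 329 of 334 neighbouring pairs of chromosome 3 genes were in order of their starts. The reads behind this identifier may therefore come from either gene, and it is called by its identifier throughout. On chromosome 5, *Gbp4* (chr5:105115767-105139586), *Gbp8* (chr5:105014150-105139540) and *Gbp9* (chr5:105077630-105139539) share exon bases in the annotation, so reads could be divided among them or dropped by the counting, and their values are uncertain. On chromosome 3, *Gbp7* shares exon bases with another annotated gene, *Gm43802*, so its reads could be divided or dropped too. The gene model *Gm43302* (chr5:105214907-105293695) spans *Gbp10* and *Gbp6*. It had counts, at a median of 5.61 CPM, and is no member.

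*Gbp2* had the highest level of the 7 members and varied the most in absolute terms. Across the 160 mice its level ran from 18.1 to 873 CPM around a median of 57.04 CPM, behind which lay 188 to 13173 counts per library. *Gbp7*, a member with a role in cell-autonomous defence against bacteria, ran from 8.70 to 220 CPM around 40.0 CPM. *Gbp3* (median 16.02 CPM), *Gbp4* (13.97), *Gbp9* (12.9) and ENSMUSG00000040264 (9.07) followed, and *Gbp8* was lowest at 4.54 CPM, with 14 counts in its lowest library. All 7 members passed the filter on low counts in each of the 10 comparisons.

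*Gbp2* took a median of 34.7% of the summed CPM of the 7 members in a mouse, with a range of 19.5% to 70.2%, and *Gbp7* 25.7% (11.5% to 37.3%). Per kilobase of annotated exon, the median level was 22.7 CPM for *Gbp2*, 7.13 for *Gbp7*, 4.91 for *Gbp3*, 2.50 for *Gbp9*, 1.86 for *Gbp4* and 1.32 for *Gbp8*. The ranges over mice of neighbours in this order overlapped. The last 3 share exon bases with each other, and *Gbp7* does with *Gm43802*. The per-length order is not given for ENSMUSG00000040264, since its gene is uncertain.

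The members varied widely between mice. Over all 160, the highest mouse exceeded the lowest by 17.5-fold for *Gbp9* and by up to 54.8-fold for ENSMUSG00000040264. Within 1 line and genotype, the widest span was 40.8-fold, for ENSMUSG00000040264 in the *Nckap1l* wild types, and the narrowest 1.87-fold, for *Gbp7* in the *Dock2* wild types. The SD of log2 CPM within groups was 1.05 for *Gbp2* and for ENSMUSG00000040264, 0.91 for *Gbp4*, 0.82 for *Gbp3*, 0.79 for *Gbp8*, 0.70 for *Gbp7* and 0.69 for *Gbp9*. Between 82.3% and 92.4% of all 19849 genes that passed the filter had a smaller spread. Among genes within 1 log2 unit of its own level, *Gbp2* varied more than 99.3%, and *Gbp8* more than 84.8%.

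The high values fell in the same few mice. Of the 10 highest mice of each member, 4 were among the highest 10 for all 7 members. These were a *Gpsm3* knockout (replicate 10, *Gbp2* 873 CPM), a *Nckap1l* knockout (replicate 14, 682 CPM), a *Nckap1l* wild type (replicate 10, 583 CPM) and a *Dock2* knockout (replicate 3, 566 CPM). Each stood above every other mouse of its group in *Gbp2*. Their mean log2 CPM of the neutrophil markers was 3.29, 1.41, 6.45 and 3.93. The *Nckap1l* wild type had the highest neutrophil and macrophage marker means of its group (6.45 and 6.94). The *Dock2* knockout had the highest macrophage and T-cell marker means of its group (5.83 and 2.15). The *Gpsm3* and *Nckap1l* knockouts were not the highest of their groups in any of these 3 lists.

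**Figure D1:**
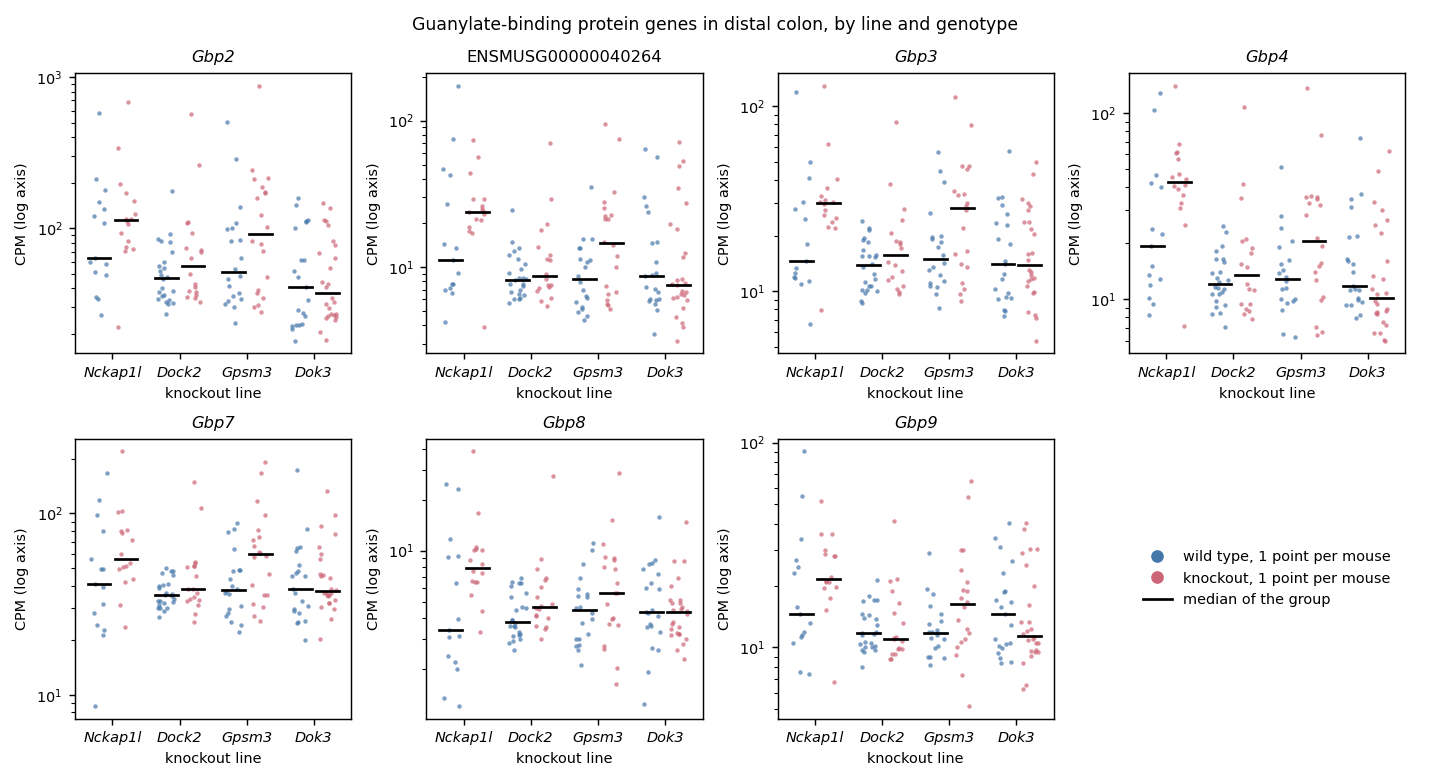
CPM (log axis) of the 7 members in each mouse, by line and genotype; bars are group medians. The groups overlap for every member, and single mice, such as the *Gpsm3* knockout with *Gbp2* at 873 CPM, stand far above their group.

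The first comparison asked whether Gbp levels differ between knockout and wild type in each line. No member passed the adjusted threshold of 0.05 in any line, by edgeR, DESeq2 or limma-voom. Here and in the comparisons below, the shares of all genes at a threshold are those of the edgeR fits alone. In the *Gpsm3* and *Dock2* lines the edgeR log2 fold changes of all 7 members were positive, each within the spread between mice. In the *Dock2* line the median of *Gbp9* was lower in knockout, at 11.0 against 11.7 CPM in wild type.

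In the *Gpsm3* line, *Gbp2* ran from 23.6 through a median of 51.2 to 503 CPM in wild type and from 28.1 through 92.1 to 873 CPM in knockout. *Gbp4* ran from 6.28 through 12.9 to 51.4 CPM in wild type and from 6.46 through 20.4 to 137 CPM in knockout. ENSMUSG00000040264 ran from 4.35 through 8.27 to 35.04 CPM in wild type and from 5.20 through 14.6 to 95.5 CPM in knockout. The low ends of both genotypes were alike, the knockout medians and highest mice were higher, and the groups overlapped. ENSMUSG00000040264 had the smallest p, at a log2 fold change of 1.11 ± 0.34 (SE; edgeR p = 0.00203, adjusted p = 0.936). The 7 log2 fold changes ran from 0.54 to 1.11, with a median of 0.65, against 0.0032 over all 17560 genes. At an unadjusted p under 0.05, 5 members were higher by edgeR, 6 by DESeq2 and 2 by limma-voom, where 3.35% of all genes were higher at that threshold and 0.00569% of genes passed the adjusted one. Within the 2 runs of sample numbers, whose meaning the labels do not give, the difference in mean log2 CPM (10 knockouts and 10 wild types each) ran from 0.20 to 0.65 and from 0.46 to 0.89. Without the knockout of replicate 10 the log2 fold changes ran from 0.21 to 0.82 and 4 members had an unadjusted p under 0.05.

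Other interferon-induced genes had higher values beside them in the *Gpsm3* knockouts. All 9 immunity-related GTPases (median log2 fold change 0.89), all 20 type I interferon-stimulated genes (0.78) and all 25 interferon-γ target genes (0.40) had positive log2 fold changes. None of these genes passed the adjusted test, and 8, 18 and 7 of them had an unadjusted p under 0.05. *Cxcl10*, a T-cell-attracting chemokine, had the smallest p (1.53 ± 0.43, adjusted p = 0.936), followed by *Ifit3* (0.83 ± 0.27) and *Rsad2* (0.95 ± 0.31), both antiviral genes. The markers of other cells had positive values as well, none of them called, in all 7 neutrophil (median 0.93), 10 macrophage and monocyte (0.29), 10 T-cell (0.24), 8 B-cell (0.56) and 7 striated muscle genes tested (1.26). Apart from the neutrophil list, their part in the result was not tested. The neutrophil level ran from -1.29 to 6.09 mean log2 CPM in wild type and from -0.90 to 5.52 in knockout. With the neutrophil mean as a covariate the members' log2 fold changes ran from 0.27 to 0.61, and 2 had an unadjusted p under 0.05.

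In the *Dock2* line, *Gbp2* ran from 27.1 through 46.8 to 175 CPM in wild type and from 32.8 through 56.7 to 566 CPM in knockout. *Gbp7* ran from 26.8 through 35.4 to 50.1 CPM and from 25.2 through 38.5 to 149 CPM. The medians lay close together, and the knockouts exceeded wild type mainly in their highest mice. *Gbp7* had the smallest p, at 0.40 ± 0.15 (edgeR p = 0.0112, adjusted p = 0.702), and the members ran from 0.14 to 0.71. At an unadjusted p under 0.05, 6 members were higher by edgeR and DESeq2 and none by limma-voom, where 2.35% of 17648 genes were higher and 0.034% passed the adjusted test. Without the knockout of replicate 3 the values ran from -0.01 to 0.34, and 1 member had an unadjusted p under 0.05. All 9 immunity-related GTPases had positive values (median 0.70) with an unadjusted p under 0.05, and none passed the adjusted test. The smallest p among the pathway lists belonged to *Cxcl9*, another T-cell-attracting chemokine (1.61 ± 0.48, adjusted p = 0.329), *Ido1*, which degrades tryptophan (1.55 ± 0.50), and *Tgtp1*, an immunity-related GTPase (1.27 ± 0.41). The neutrophil and T-cell markers had medians of -0.34 and -0.18. All 8 B-cell markers had negative values (median -0.91), 1 of them called lower, and the 7 striated muscle markers had a median of -1.72. Apart from the neutrophil list, the part of these markers in the result was not tested. With the neutrophil mean as a covariate the members' log2 fold changes ran from 0.13 to 0.73, and 6 had an unadjusted p under 0.05.

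In the *Nckap1l* line, the knockout medians were higher for all 7 members, at 113 against 63.5 CPM for *Gbp2* and 42.8 against 19.4 CPM for *Gbp4*. Yet the wild types reached 583 CPM for *Gbp2* and 128 CPM for *Gbp4*, against 682 and 140 CPM in the knockouts, and the ranges overlapped. *Gbp4* had the smallest p, at 0.49 ± 0.40 (edgeR p = 0.227, adjusted p = 1.0). The members ran from -0.14 to 0.49, with 0 at an unadjusted p under 0.05 by edgeR and DESeq2 and 2 by limma-voom, where 4.5% of 17947 genes passed unadjusted and 0.0% adjusted. The fold changes of edgeR weigh the mean count, and so the highest mice. The difference in mean log2 CPM was positive for all members and ran from 0.73 to 1.22 in the first run of sample numbers (6 knockouts, 8 wild types) and from 0.36 to 1.55 in the third (5 and 3). In the second run (5 and 4) it was negative for all 7, from -0.74 to -0.24. With the run as a covariate the fold changes ran from 0.16 to 0.59. With 2 surrogate variables they ran from 0.54 to 1.19, and all 7 had an unadjusted p under 0.05 while none passed the adjusted test. Without the 15 libraries rich in skin markers they ran from -0.76 to 0.20. Without the library of the highest summed member level they ran from -0.28 to 0.33, with 4 of 7 positive. All 8 B-cell markers had negative values (median -2.40) and an unadjusted p under 0.05, with none called, and their part in the result was not tested.

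In the *Dok3* line, the 2 genotypes lay together. *Gbp2* ran from 18.1 through 40.8 to 158 CPM in wild type and from 18.3 through 37.6 to 148 CPM in knockout. The members' log2 fold changes ran from -0.18 to 0.01. *Gbp8* had the smallest p, at -0.18 ± 0.21 (edgeR p = 0.406, adjusted p = 1.0), and 0 members had an unadjusted p under 0.05 by any of the 3 tools, where 2.19% of 17612 genes did and 0.0% passed adjusted. Within the 2 runs the difference in mean log2 CPM ran from -0.18 to 0.04 and from -0.41 to 0.24. Without the wild type of replicate 20 the fold changes ran from -0.03 to 0.21.

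**Figure D2:**
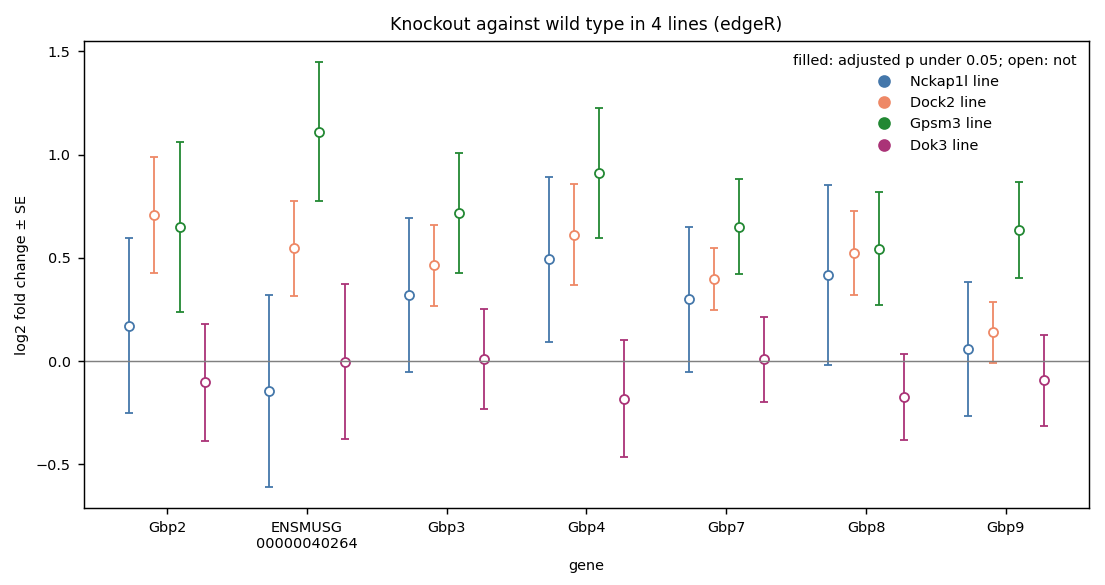
Log2 fold change (knockout over wild type, edgeR, ± SE) of the 7 members in the 4 lines. All points are open, since none passed the adjusted threshold; the *Gpsm3* values run from 0.54 to 1.11 and the *Dok3* values from -0.18 to 0.01.

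Whether the knockout difference itself differed between lines, sexes or runs was tested by 11 contrasts, 1 of which set the *Dok3* line against the other 3 together. Sexes were contrasted in the *Nckap1l* and *Dock2* lines, and runs in the *Gpsm3* and *Dok3* lines. Whether the knockout difference differed between the runs of the *Nckap1l* line, where its sign turned, was not tested. None of the 77 member values passed the adjusted threshold by edgeR, and the smallest adjusted p was 0.402. Over all genes and contrasts 0.208% of values passed. At an unadjusted p under 0.05 there were 7 member values, or 9.09%, against 5.04% of the values of all genes. Of the 7, 4 were in the contrast of *Gpsm3* with *Dok3*, where 7.40% of all genes were under that threshold. The contrasts share samples, and the members move together, so these values are not independent. Among them was *Gbp4*, whose *Gpsm3* difference exceeded its *Dok3* difference by 1.09 ± 0.42 (adjusted p = 0.58).

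Females and males were compared in the 2 lines that hold both. In the *Dock2* line the edgeR log2 fold changes, female over male, were below 0 for all 7 members, and none passed the adjusted test. The median of *Gbp8* was nonetheless higher in females, at 4.48 against 4.06 CPM in males. ENSMUSG00000040264 had the smallest p, at -0.67 ± 0.23 (adjusted p = 0.0551). DESeq2 called it and *Gbp2* lower. By edgeR, 4 members were lower at an unadjusted p under 0.05, where 14.5% of 17578 genes were lower at that threshold and 10.1% passed the adjusted test in either direction. *Gbp2* had a median of 42.3 CPM in 20 females and 53.2 CPM in 22 males, and males reached 566 CPM against 110 CPM. Of the 9 immunity-related GTPases, 5 were called lower (median -0.79). *Nos2*, which makes nitric oxide, had the smallest p (-2.70 ± 0.64, adjusted p = 0.00576), before *Batf2*, an interferon-induced transcription factor (-0.41 ± 0.10), and *Tgtp1* (-1.56 ± 0.42). The neutrophil markers had a median of -1.28. With the neutrophil mean as a covariate the members' values ran from -0.47 to 0.08, and 0 members had an unadjusted p under 0.05. Without the *Dock2* knockout of replicate 3 the values ran from -0.50 to 0.08, and 2 members had an unadjusted p under 0.05. In the *Nckap1l* line the values also lay below 0, from -0.74 to -0.10, with *Gbp2* at -0.74 ± 0.45 (edgeR p = 0.107, adjusted p = 0.423). There, 0 members had an unadjusted p under 0.05 by any of the 3 tools, where 15.3% of 18235 genes did and 0.192% passed the adjusted test. With the run of sample numbers as a covariate these values turned, from -0.06 to 0.42 with 6 of 7 positive, and by limma-voom 3 of 7 were positive.

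The runs of sample numbers were compared because mice of 1 run may share a cohort, which the labels do not say. In the *Gpsm3* line, *Gbp2* was at a median of 77.0 CPM in the first run and 63.6 CPM in the second, with highest mice at 873 and 188 CPM, and without the knockout of replicate 10 its log2 fold change was -0.75. With all mice it was -1.09 ± 0.38 (edgeR adjusted p = 0.0686), called by DESeq2 and with the neutrophil covariate. It was the only member with an unadjusted p under 0.05, where 12.7% of 17560 genes were lower at that threshold and 7.93% passed the adjusted test. In the *Dok3* line all 7 members had higher values in the second run, from 0.28 to 0.62. *Gbp3* had the smallest p (0.59 ± 0.23, edgeR adjusted p = 0.62), and 4 members had an unadjusted p under 0.05 by edgeR and DESeq2 and 2 by limma-voom. Without the *Dok3* wild type of replicate 20 the values ran from 0.14 to 0.45, and 1 member had an unadjusted p under 0.05. Of 17893 genes, 3.14% were higher unadjusted and 0.14% passed the adjusted test.

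The *Dok3* line was set against the mean of the 3 C57BL6/J lines within each genotype. This contrast holds strain, DSS percentage, day of collection, line and sample-number run together, and these cannot be told apart. Among wild types, *Gbp2* was at a median of 40.8 CPM in the *Dok3* line, against 63.5, 46.8 and 51.2 CPM in the *Nckap1l*, *Dock2* and *Gpsm3* lines. Its log2 fold change was -0.74 ± 0.30 (edgeR adjusted p = 0.0725), which DESeq2 called and edgeR and limma-voom did not. The other 6 members ran from -0.20 to 0.06. In this comparison 13.1% of 19060 genes were lower at an unadjusted p under 0.05, as was 1 member, and 16.8% passed the adjusted test in either direction. Without the highest library the members ran from -0.52 to 0.25. T-cell markers were called higher in the *Dok3* wild types for 6 of 10 genes (median 0.63), and their part in the result was not tested.

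Among knockouts, 4 of the 7 members fell below the C57BL6/J lines by edgeR, where 6.81% of 18704 genes were called lower and 12.3% were lower at an unadjusted p under 0.05. *Gbp2* had a median of 37.6 CPM in the 26 *Dok3* knockouts, against 113, 56.7 and 92.1 CPM in the *Nckap1l*, *Dock2* and *Gpsm3* knockouts, and its log2 fold change was -1.42 ± 0.30 (adjusted p = 0.000299). *Gbp4*, which shares exon bases with *Gbp8* and *Gbp9*, had medians of 10.2 CPM against 42.8, 13.5 and 20.4 CPM, with a change of -1.01 ± 0.27 (adjusted p = 0.0059). *Gbp8* had medians of 4.33 CPM against 7.94, 4.64 and 5.64 CPM, with a change of -0.78 ± 0.22 (adjusted p = 0.00719). *Gbp3* had medians of 13.9 CPM against 30.0, 15.7 and 28.2 CPM, with a change of -0.75 ± 0.23 (adjusted p = 0.0158). The *Dok3* medians were the lowest of the 4 knockout groups for each of these genes, with the *Dock2* knockouts nearest, and the ranges overlapped. *Gbp7* (-0.46), ENSMUSG00000040264 (-0.50) and *Gbp9* (-0.32) were not called. Limma-voom called *Gbp2* and *Gbp4* alone. Leaving out each knockout library in turn kept the difference in mean log2 CPM between -1.07 and -0.94 for *Gbp2* and between -0.99 and -0.84 for *Gbp4*.

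All 9 immunity-related GTPases were called lower in the *Dok3* knockouts (median -1.20), *Irgm2* among them at -1.12 ± 0.25 (adjusted p = 0.000459). So were 10 of 25 interferon-γ target genes, with 1 called higher, and 5 of 20 type I interferon-stimulated genes. The inflammasome genes *Pycard*, the adaptor ASC (-0.37 ± 0.06, adjusted p = 4.24e-07), and *Nlrc4*, a sensor of bacterial proteins (-0.51 ± 0.11), had the smallest p. In the wild types, where no member was called, *Pycard* (-0.43 ± 0.05, adjusted p = 1.07e-09), *Nlrc4* (-0.71 ± 0.10) and the sensor *Nlrp1b* (-1.03 ± 0.21) were called lower too, while 0 of 9 immunity-related GTPases were by edgeR. Several marker lists moved with this contrast in the knockouts. Of the 8 neutrophil markers tested, 5 were called higher and 1 lower (median 2.31), and of 8 B-cell markers 6 were called higher (median 1.09). The 8 skin markers all had positive values (median 2.004) with none called, and the 9 striated muscle markers did too (median 1.20) with 1 called higher. With the neutrophil mean as a covariate, 5 members were called lower and *Gbp2* was at -1.44. Without the libraries rich in skin markers, 5 members were called lower as well, *Gbp7* in addition to the 4. The part of the B-cell and striated muscle lists in the result was not tested. Whether the contrast differed between knockouts and wild types was tested in the fit of all mice, and no member passed. The differences ran from -0.84 to -0.36, with *Gbp4* at -0.84 ± 0.34 (edgeR p = 0.0143, adjusted p = 0.997).

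**Figure D3:**
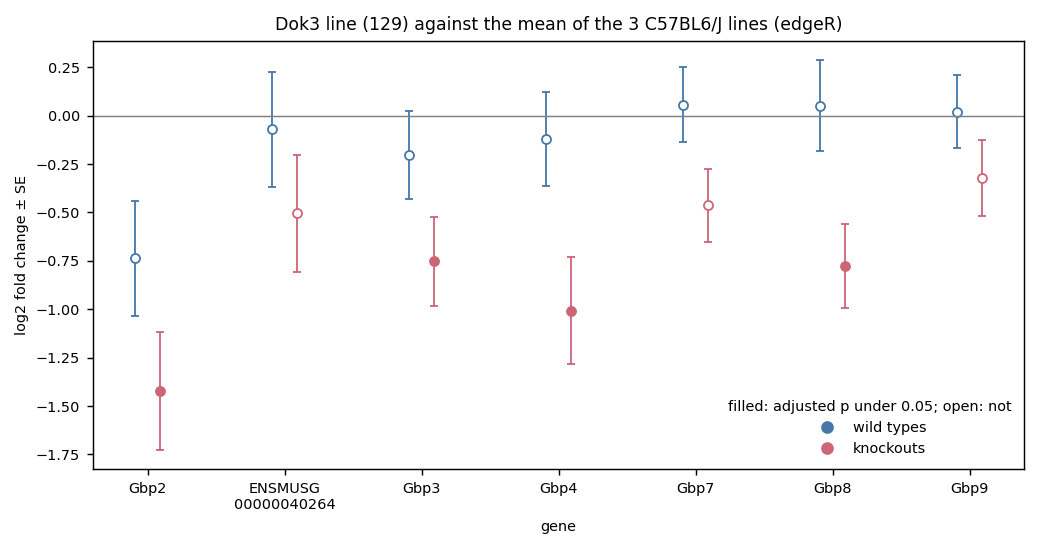
Log2 fold change of the *Dok3* line (129) over the mean of the 3 C57BL6/J lines (edgeR, ± SE), for wild types and knockouts. Filled points passed the adjusted threshold: *Gbp2*, *Gbp3*, *Gbp4* and *Gbp8*, in the knockouts.

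Across mice, the members moved together in all 4 lines. For each pair, Spearman's rho and Pearson's r were taken within a line on log2 CPM centred on the mean of each genotype and run, so that these groups add nothing to them. Sex was not centred, so differences between females and males can add to the values of the *Nckap1l* and *Dock2* lines. All 21 pairs passed in each line, over 84 relations, with permutation p-values adjusted by Benjamini-Hochberg. The share of other gene pairs that pass is not given here. As a background, the mean over the 4 lines of rho was taken between each member and all genes. Its 95th percentile ran from 0.37 for *Gbp7* to 0.56 for *Gbp9*, while pairs of members had means from 0.69 to 0.91. The values of rho ran from 0.78 to 0.94 among *Nckap1l* mice (n = 31), from 0.48 to 0.90 among *Dock2* mice (n = 42), from 0.81 to 0.95 among *Gpsm3* mice (n = 40) and from 0.65 to 0.93 among *Dok3* mice (n = 47). The largest adjusted permutation p of a rho was 0.00201, in the *Dock2* line, and the smallest p that the permutations can give is 1e-05. Pearson's r ran from 0.61 to 0.96 over the 4 lines, and from 0.39 to 0.97 without the 2 mice farthest from the median of the first gene of each pair.

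In the *Dock2* and *Dok3* lines the lowest values belonged to *Gbp8*, the member with the fewest counts. Among *Dock2* mice its rho with the other members ran from 0.48 to 0.61, while all other pairs there were at 0.737 or more. In the *Gpsm3* line the lowest rho was that of *Gbp7* with *Gbp9*, at 0.81. In the *Nckap1l* line that pair was at 0.78, beside ENSMUSG00000040264 with *Gbp8* at 0.78. Pairs within the chromosome 3 cluster had median rhos of 0.90, 0.87, 0.94 and 0.90 in the *Nckap1l*, *Dock2*, *Gpsm3* and *Dok3* lines, and pairs across the 2 chromosomes 0.87, 0.79, 0.87 and 0.80. The chromosome 5 pairs, which share exon bases, had medians of 0.84, 0.55, 0.86 and 0.70. Within single runs the median rho over pairs was 0.76 or more in each of the 8 runs. With the neutrophil marker mean regressed out, all 21 pairs still passed in each line, and rho ran from 0.41 to 0.95.

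**Figure D4:**
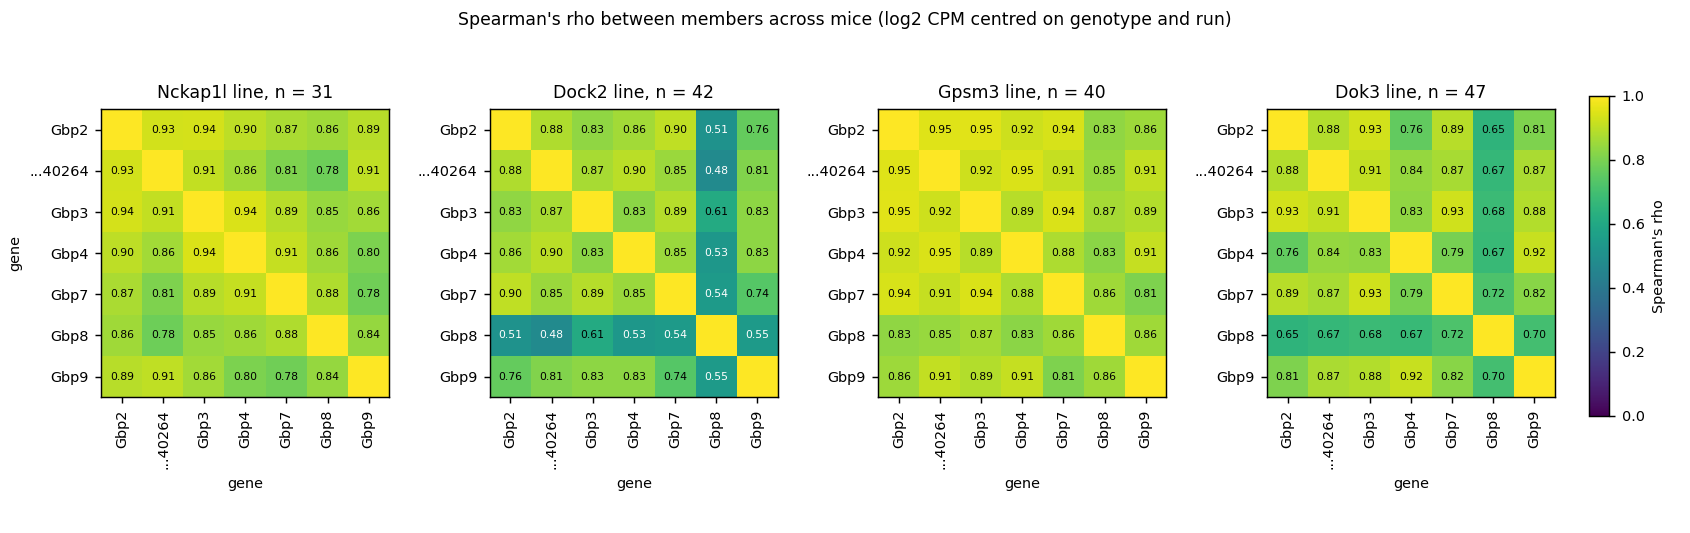
Spearman's rho between the 7 members across mice of each line, on log2 CPM centred on genotype and run. All pairs lie between 0.48 and 0.95, and the row of *Gbp8* in the *Dock2* line holds the lowest values.

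*Gbp2* was compared with the mean log2 CPM of the other gene lists and with single genes, 72 relations in all, tested in the same way. The immunity-related GTPases had the highest rho of the lists in each line, at 0.96, 0.91, 0.96 and 0.95 in the *Nckap1l*, *Dock2*, *Gpsm3* and *Dok3* lines (adjusted permutation p = 2.4e-05 in each; Pearson's r 0.97, 0.95, 0.94 and 0.95, and 0.90 to 0.96 without the 2 farthest mice). The interferon-γ signalling genes were at 0.87, 0.78, 0.86 and 0.88, the interferon-γ target genes at 0.89, 0.72, 0.89 and 0.84, and the type I interferon-stimulated genes at 0.78, 0.52, 0.75 and 0.71. Inflammasome and pyroptosis genes were at 0.71, 0.36, 0.69 and 0.74, and passed in each line. *Irf1*, an interferon-induced transcription factor, was at 0.82, 0.67, 0.91 and 0.69, and *Cxcl9* at 0.81, 0.88, 0.94 and 0.82. *Ifng* itself was at a median of 0.064 CPM, under 3 counts, and its rho of 0.67, 0.66, 0.78 and 0.61 rests on few reads.

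The markers of cell types were compared in the same way. Neutrophil markers were at rho 0.61, 0.41, 0.52 and 0.64, and macrophage and monocyte markers at 0.58, 0.33, 0.62 and 0.72. The macrophage value of the *Dock2* line missed the threshold (adjusted permutation p = 0.0546). T-cell markers had a rho of 0.10 in the *Dock2* line (adjusted permutation p = 0.567), against 0.59, 0.67 and 0.60 for *Nckap1l*, *Gpsm3* and *Dok3* mice. The epithelial markers were at -0.36, -0.12, -0.03 and -0.38, which passed in the *Dok3* line (adjusted permutation p = 0.0106) and missed in the others by rho. By Pearson's r the *Nckap1l* line passed as well (r = -0.44, adjusted permutation p = 0.0255). Skin markers ran from -0.07 to 0.18 and passed in no line (smallest adjusted permutation p = 0.291). By rho, B-cell markers passed in the *Nckap1l* line alone (0.43) and striated muscle markers in the *Dock2* line alone (0.34). Endothelial markers (0.34) and fibroblast and smooth muscle markers (0.35) passed in the *Dok3* line alone. Differences between these correlations were not tested. In whole colon, more cells that express a gene and more RNA per cell cannot be told apart.

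**Figure D5:**
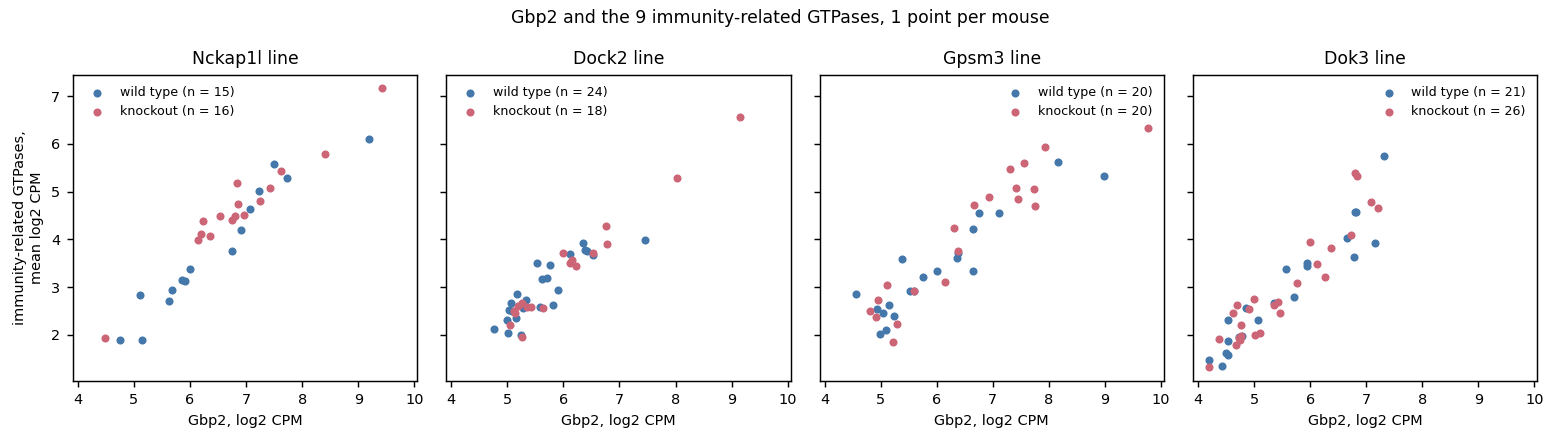
Log2 CPM of *Gbp2* against the mean log2 CPM of the 9 immunity-related GTPases, 1 point per mouse, by line and genotype. The points rise together in each line, with Pearson's r of 0.94 to 0.97 after centring.

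Genes outside the family were ranked for likeness to *Gbp2* by the mean over the 4 lines of rho, over 19849 genes and 160 mice. High in this order were *Igtp* (0.93), *Irgm2* (0.92), *Gm12250* (0.92), *Tap1* (0.91), *Ifi47* (0.91), *Irgm1* (0.90), *Tgtp1* (0.90), *Gm43302* (0.90) and *Iigp1* (0.90). The median over all genes was -0.01 and the 95th percentile 0.46. The most alike was *Iigp1* for ENSMUSG00000040264 (0.91) and for *Gbp4* (0.91), *Tap1*, a peptide transporter of antigen presentation, for *Gbp3* (0.93), *Igtp* for *Gbp7* (0.92), *Ifi47* for *Gbp9* (0.90) and *Psmb9*, a subunit of the immunoproteasome, for *Gbp8* (0.80). The likeness of *Gbp8* to *Psmb9* was at 0.59 in the *Dock2* line and 0.83 to 0.91 in the others.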

How the data were processed

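RNA-seq was measured in 160 distal colon samples. Per the labels and the methods of the study, the authors made stranded ribosomal-RNA-depleted libraries, used STAR to map reads to mm10, and featureCounts of Subread to count those on genes. Their versions are not given in the sources used here. The counts they deposited are raw, 1 table per sample. Counts on genes that overlap, or on near-identical copies, can be divided or dropped by such counting. Names and positions came from GENCODE M21 (GRCm38), which named 37607 of 39179 genes.

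Genes passing filterByExpr went into edgeR 4.0.16 (R 4.3.3), with TMM normalization and its quasi-likelihood test, with Benjamini-Hochberg adjustment over all genes of a fit and a threshold of 0.05. The fits of *Nckap1l* and *Dock2* mice, and those across lines, held sex as a term, and the comparisons of sexes and runs held genotype. The edgeR, DESeq2 and limma-voom fits were tested on simulated data. Levels are CPM after TMM, and their log2 was taken with edgeR's prior count set to 2. *Ifng*, below the filter, was taken as log2 of CPM plus 0.1. Correlations were tested two-sided by 100000 permutations within genotype and run (scipy 1.17.1, numpy 2.4.6). Alternatives were DESeq2 1.42.0, limma-voom (version 3.58.1), which the study used, the size factors of DESeq2, no filter beyond 1 count, at least 10 counts in every sample, an adjusted threshold of 0.01, no libraries under 10000000 counts, no libraries with sex markers against the label, the neutrophil marker mean as a covariate, 2 surrogate variables (sva 3.50.0), no sex covariate, males only and the run as a covariate. Leaving out libraries with a skin marker mean over 3, leaving out the library with the highest summed member level, leaving out each library in turn, and the contrast of strain differences between genotypes were added after seeing the data.

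The members and gene lists were chosen with earlier results of these data known. In each comparison, log2 fold changes were named for members with an adjusted p under 0.05 and for the member of smallest p, and for the 3 genes of smallest p over the pathway lists; for *Gbp2* the 10 most alike genes were to be named, and 1 for each other member. Some results under this rule are not reported here. *Gbp5* was to be named throughout and to anchor the correlations. Since it was not matched, *Gbp2*, the member with the most counts, took its place, and all pairs were computed, which was decided after levels were seen. Sample numbers mark separate mice, and cages and litters are not labelled, so p-values measure the spread between these mice. The 2 most alike samples of a group differed by a chi-square of 4.01 per gene, and none was counted as a repeat.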

Additional observations from a re-analysis of the deposited data

Results flagged for a closer look

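Within groups of 4 to 10 mice of 1 line, genotype and run of sample numbers, 77 sets of values were searched for a mouse far from the rest by Dixon's test, and 9 were found. Chance flags about 1 in 20 such sets, and the 7 members are not independent. The *Nckap1l* knockout of replicate 14 stood above the 4 other mice of its run in *Gbp2* (682 CPM against 70.6 to 115), *Gbp3* (129 against 22.1 to 36.4) and *Gbp8* (38.7 against 6.63 to 10.1). The *Nckap1l* wild type of replicate 8 stood above the 7 others in ENSMUSG00000040264 (75.3 CPM against 4.23 to 14.3) and *Gbp4* (104 against 8.22 to 23.7). The *Gpsm3* knockout of replicate 10 stood above the 9 others in *Gbp8* (28.8 CPM against 2.62 to 8.77) and *Gbp9* (65.2 against 5.18 to 19.1). In the first run of *Nckap1l* knockouts, replicate 5 was high in ENSMUSG00000040264 (43.8 CPM against 20.9 to 24.8), and replicate 4 was low in *Gbp3* (22.4 against 29.6 to 32.6). Whether these mice drank DSS is not labelled.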

How the results depend on the processing

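The number of members called was computed again under 116 alternatives of the 10 comparisons, and stayed within 1.5 times the reported number in 110. In the 4 knockout comparisons it was 0 under all 51. For females against males in the *Dock2* line it was 2 by DESeq2 and 2 without the libraries rich in skin markers. For the second against the first run of the *Gpsm3* line it was 1 by DESeq2 and 1 with the neutrophil covariate. For the *Dok3* line against the C57BL6/J lines it was 1 by DESeq2 in the wild types, and in the knockouts 2 by limma-voom, in place of 4. The cause was not tested. Of the 13 single values named, none changed sign in 139 alternatives. Values of other members crossed 0 in the knockout comparisons of the *Dock2* line without the highest library, and of the *Nckap1l* and *Dok3* lines. In the *Dok3* line 2 of 7 were positive in the main fit and 6 of 7 without the highest library. Some also crossed 0 in both comparisons of sexes, between the *Gpsm3* runs, and between the *Dok3* and C57BL6/J wild types. All 21 pairs passed in each line under the 20 alternatives, by rho; without the 2 mice farthest from the median of *Gbp2*, 20 of 21 did by r in the *Dock2* line. No paired analysis was possible because sample numbers are unique to each mouse and replicate numbers here only name a sample. No *Nckap1l* library held fewer than 10000000 counts, and sex markers went against the label only in the *Dok3* line, so those alternatives were not run elsewhere. Depth limits *Gbp8* most, with 14 counts in its lowest library.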

Other observations

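*Gm43302*, the gene model that spans *Gbp10* and *Gbp6*, ran from 1.34 to 80.5 CPM over the 160 mice. Its log2 fold change between the *Dok3* line and the C57BL6/J lines was -1.03 ± 0.32 in knockouts (edgeR adjusted p = 0.0179) and -0.46 ± 0.29 in wild types (adjusted p = 0.288). *Gbp11*, which lies beside *Gbp6*, was at a median of 0.063 CPM and reached 0.995 CPM.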
